A study of Mus musculus with 6 samples.

Results

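The Wnt pathway genes of the corneal epithelium were followed by symbol, as every Wnt, Frizzled (*Fzd*), *Sfrp*, *Dkk*, *Rspo* and *Lgr* gene with a number in its name, together with 17 named partners such as the co-receptors *Lrp5* and *Lrp6*, the ligase *Rnf43* and the nuclear effector *Ctnnb1*. The rule used names and no measured value, and it found 51 of the 17784 genes listed. RNA-seq compared corneal epithelial cells of 3 *Prrx1-CreERT;Ptch1f/f* samples (*Ptch1*-ablated, labelled KO) with 3 control samples, which the labels call WT and the study's heatmap of these data calls *Ptch1f/f*, with no Cre named. Both groups received 3 doses of tamoxifen at 10 weeks of age, with an interval of 2 months, and the epithelium was separated from the cornea with EDTA. *Prrx1-CreERT*, a recombinase switched on by tamoxifen, is described by the study as active in keratocytes, other ocular mesenchymal cells and corneal endothelium, so the deletion of the Hedgehog receptor *Ptch1* was directed at cells beneath the epithelium and not at the cells measured. The comparison therefore asks how transcripts of Wnt genes in the epithelium differed when Hedgehog signaling was activated in its neighbours.

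Wnt proteins are secreted, lipid-modified ligands. Porcupine (*Porcn*) attaches the lipid and Wntless (*Wls*) carries the ligand to the cell surface. There it is bound by a Frizzled receptor with Lrp5 or Lrp6, which stops the destruction of β-catenin (*Ctnnb1*) so that it can enter the nucleus and act with TCF and LEF factors. R-spondins and Lgr receptors raise the response by removing the ligases Rnf43 and Znrf3, which clear Frizzled from the membrane, while Sfrp and Dkk proteins are known mostly as extracellular antagonists. In the cornea the pathway is known for its part in limbal stem cells and in the control of epithelial stratification.

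Promoters of the members that passed the test were taken from RefSeq (GRCm38.p6), as 250 bases before to 50 bases after each annotated start, written 5′ to 3′ on the strand of the gene. They are shown for what each holds of the GC box, the word GGGCGG on either strand, which is in capitals, and *Wnt3a* is added as the neighbour of *Wnt9a* on chromosome 11. The *Wnt9a* window is chr11:59306680-59306979 on the plus strand, the *Wnt3a* window chr11:59290702-59291001 on the minus strand, and the *Fzd4* window chr7:89404116-89404415 on the plus strand. *Rnf43* has starts at chr11:87662837-87663136 and chr11:87699647-87699946, both on the plus strand. No entry was matched for *Wnt10a* and *Fzd3*.
Wnt9a: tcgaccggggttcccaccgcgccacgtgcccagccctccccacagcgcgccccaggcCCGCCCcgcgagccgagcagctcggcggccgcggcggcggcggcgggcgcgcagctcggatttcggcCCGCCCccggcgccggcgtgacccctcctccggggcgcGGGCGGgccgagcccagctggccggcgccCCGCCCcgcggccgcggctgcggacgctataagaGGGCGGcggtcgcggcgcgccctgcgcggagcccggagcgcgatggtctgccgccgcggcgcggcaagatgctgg
Wnt3a: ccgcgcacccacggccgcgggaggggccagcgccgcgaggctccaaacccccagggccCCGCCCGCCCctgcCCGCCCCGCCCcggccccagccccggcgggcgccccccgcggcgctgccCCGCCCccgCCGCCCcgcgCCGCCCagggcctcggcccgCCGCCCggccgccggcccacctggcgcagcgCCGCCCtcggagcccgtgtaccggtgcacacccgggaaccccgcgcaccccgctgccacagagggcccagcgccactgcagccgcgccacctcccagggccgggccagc
Fzd4: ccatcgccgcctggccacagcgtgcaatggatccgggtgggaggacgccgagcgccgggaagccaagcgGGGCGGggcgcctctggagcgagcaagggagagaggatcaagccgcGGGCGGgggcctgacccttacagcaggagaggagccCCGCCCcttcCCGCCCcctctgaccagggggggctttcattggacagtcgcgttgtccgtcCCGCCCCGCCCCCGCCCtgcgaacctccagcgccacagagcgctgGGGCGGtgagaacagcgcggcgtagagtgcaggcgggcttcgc
Rnf43, upstream start: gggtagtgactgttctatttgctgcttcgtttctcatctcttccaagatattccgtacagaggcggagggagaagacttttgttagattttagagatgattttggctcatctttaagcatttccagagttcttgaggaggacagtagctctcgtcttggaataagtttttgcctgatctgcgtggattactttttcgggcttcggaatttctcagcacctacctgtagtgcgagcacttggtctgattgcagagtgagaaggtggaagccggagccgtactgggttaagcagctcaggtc
Rnf43, downstream start: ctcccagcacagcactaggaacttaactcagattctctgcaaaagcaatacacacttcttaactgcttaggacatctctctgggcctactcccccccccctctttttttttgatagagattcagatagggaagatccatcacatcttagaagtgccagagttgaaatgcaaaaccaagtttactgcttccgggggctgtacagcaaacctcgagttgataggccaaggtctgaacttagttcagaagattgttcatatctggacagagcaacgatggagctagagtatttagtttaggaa
The *Wnt9a* window held 5 GC boxes, the *Wnt3a* window 9 and the *Fzd4* window 8, counting overlapping matches, and both *Rnf43* windows held 0. G and C made up 83.3% of the *Wnt9a* window and 86.3% of the *Wnt3a* window, against 46.7% and 44.3% at the upstream and downstream *Rnf43* starts. Of 45 promoters matched for 35 of the 51 members, 77.8% held at least 1 GC box, against 35.7% of all 32851 promoters of this length. The TCF word CTTTGAT and its variants that end in TT, AA or TA in place of AT, searched on both strands, were in 15.6% of the members' promoters and 16.9% of all promoters. None of the windows shown held one, which says only that these letters are not in these bases.

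The 6 samples held between 20296681 and 20625792 counts, so that 3 counts, the floor used here for counting error, equalled 0.145 to 0.148 CPM (counts scaled to library size). On the first principal component (58.1% of the variance) *Ptch1*-ablated replicate 1 lay apart at 51.7, with replicates 2 and 3 at 18.3 and 19.1 and the control samples between -33.7 and -26.5. *Ptch1* itself had normalised counts (scaled to a common library size) of 517, 659 and 682 in control replicates 1, 2 and 3 and 390, 445 and 471 in *Ptch1*-ablated replicates 1, 2 and 3 (log2 fold change -0.51, SE 0.127, edgeR adjusted p = 0.0401). The samples held epithelial transcripts, since 9 of 9 corneal epithelial markers, among them *Krt12* and *Pax6*, were above the floor and summed to 100800 to 108200 TPM, a level scaled for gene length and depth, in control and 92880 to 110800 in *Ptch1*-ablated samples. Among them *Krt14*, a keratin of basal cells, rose (log2 fold change 2.81, adjusted p = 0.00769). The keratocyte marker *Kera* had at most 0.994 normalised counts in any sample. The 12 stromal markers measured summed to 12.9, 10.6 and 68.4 TPM in control replicates 1, 2 and 3, with replicate 3 apart from the rest. In *Ptch1*-ablated samples they summed to 10.7 to 15.8 TPM. Of the 7 tested, *Thbs2* alone passed, and it rose (log2 fold change 2.94, adjusted p = 0.0112). The others tested lay below 0, from -0.23 for *Col5a1* to -3.14 for *Col6a1*, and the median of the 7 was -1.8. Control replicate 3 was the highest sample for *Col1a2*, *Col5a1*, *Col6a1*, *Prrx1* and *Vim*, though not for *Pdgfra*. *Col6a1* had 10.9, 5.90 and 175 normalised counts in control replicates 1, 2 and 3 and 13.4, 7.18 and 0.996 in *Ptch1*-ablated replicates 1, 2 and 3. Among those not tested, *Dcn* was higher in every *Ptch1*-ablated sample, and the groups overlapped for *Kera*, *Col1a1*, *Col3a1* and *Col6a2*. Levels of 3 conjunctival markers summed to 1384 to 2309 TPM in control and 2174 to 4667 TPM in *Ptch1*-ablated samples, and those of 4 limbal markers to 1184 to 2293 and 1810 to 3822 TPM. Both were highest in *Ptch1*-ablated replicate 1, and none of their members passed the test. The 6 immune markers summed to 48.3 to 54.4 TPM in control and 50.5 to 69.9 TPM in *Ptch1*-ablated samples. Most of that was *Cd68*, at 45.3 to 65.5 TPM over all samples. *H2-Ab1* was at 1.39 to 4.17 TPM over all samples. *Cd68* (log2 fold change 0.27, adjusted p = 0.213) and *H2-Ab1* (-0.40, adjusted p = 0.566) were tested and did not pass. *Ptprc*, *Lyz2*, *Cd3e* and *Cd207* were each at most 0.32 TPM in any sample. The corneal endothelial list (103 to 120 against 108 to 127 TPM, 2 tested), the melanocyte list (8.19 to 9.53 against 8.83 to 10.1 TPM, 3 tested) and the nerve list (1.85 to 2.48 against 1.32 to 1.66 TPM, 1 tested) had 0 members that passed. Nearly all of the endothelial sum was *Alcam* (78.95 to 96.71 TPM over all samples) and *Slc4a11* (23.75 to 29.69 TPM). The other endothelial markers, *Col8a1* and *Col8a2*, were at most 0.52 and 0.10 TPM in any sample. The vessel markers, of which 0 were tested, summed to 0.04 to 0.10 TPM in control and 0.14 to 0.32 TPM in *Ptch1*-ablated samples, every one above control. The part of these markers in the results was not tested, and in such bulk samples fewer cells of a type and less RNA per cell cannot be told apart.

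The epithelium expressed a broad set of Wnt genes. Of the 51 members, 36 had over 3 counts in all 6 samples, 8 had at most 3 counts in every sample, and 35 passed edgeR's filter on low counts and were tested. The 16 members not tested had at most 15 counts in any sample and a mean of at most 0.162 TPM, whereas those tested ranged from 0.50 to 365 TPM. Among the ligands not tested were *Wnt3*, *Wnt7a*, *Wnt9b*, *Wnt10b* and *Wnt16*. The receptors *Ror1*, *Ror2*, *Lgr5* and *Lgr6*, the antagonists *Sfrp5*, *Dkk1*, *Dkk2*, *Dkk4*, *Wif1* and *Notum*, and the nuclear factor *Lef1* were likewise not tested. *Wnt1*, *Wnt8a*, *Wnt8b*, *Fzd9*, *Rspo1*, *Rspo2*, *Rspo3*, *Rspo4*, *Sfrp2* and *Sfrp4* were not listed under these names, so they were not analysed here.

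**Figure D1:**
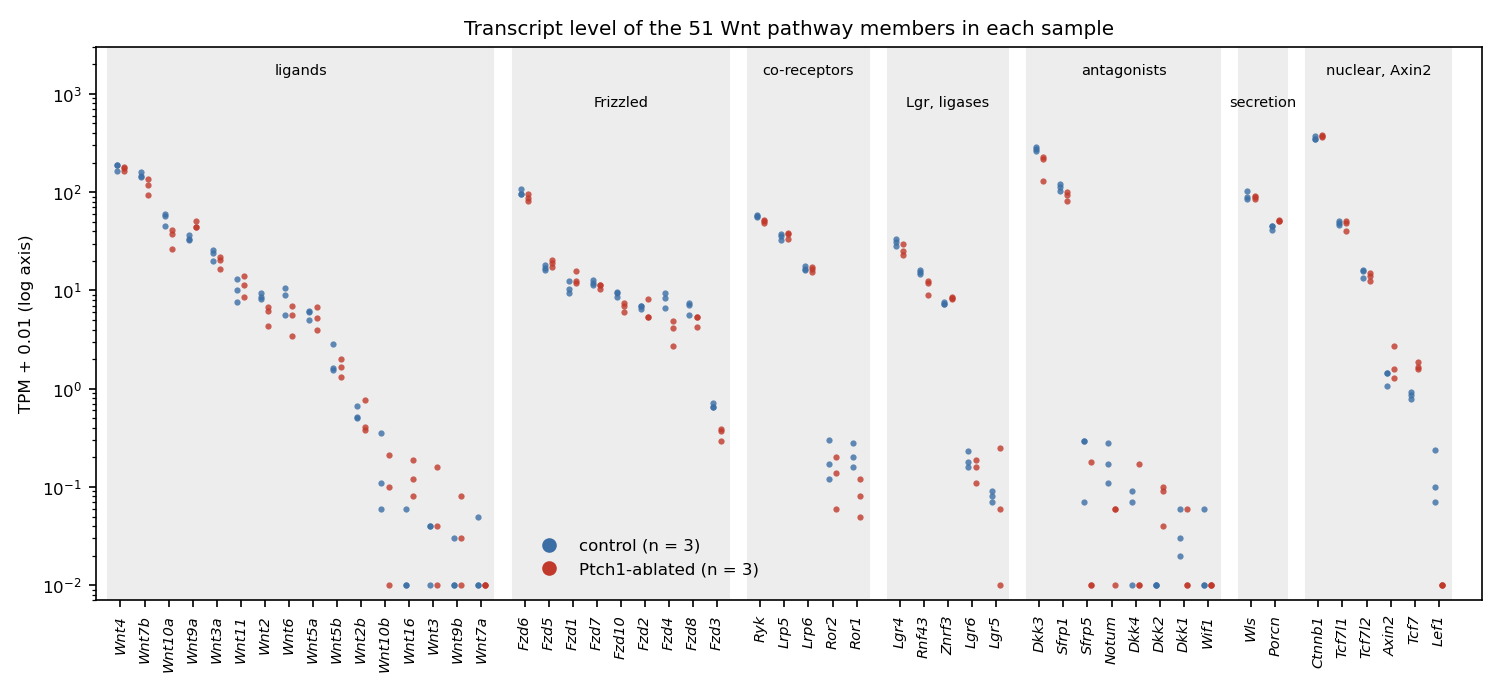
Level of each of the 51 members in TPM plus 0.01 on a log axis, 1 point per sample, with control samples in blue and *Ptch1*-ablated samples in red, grouped by role and ordered by mean level within a role. *Ctnnb1*, *Dkk3*, *Wnt4* and *Wnt7b* lie highest, and the 16 members not tested have mean levels of at most 0.162 TPM.

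Of the 35 members tested with edgeR's quasi-likelihood test, 5 passed (adjusted p, by Benjamini-Hochberg, no higher than 0.05; 14.3%), against 14.0% of all 12999 genes tested, so the share was near the background. The ligand *Wnt9a* rose, and 1 of 35 higher is 2.86% against 7.61% of all genes. The ligand *Wnt10a*, the receptors *Fzd3* and *Fzd4* and the ligase *Rnf43* fell, and 4 of 35 lower is 11.4% against 6.41%. With a fold change of at least 2 as well, 0 members were higher (2.34% of all genes) and *Fzd4* alone was lower, 2.86% of members against 0.892%. The normalised counts of the groups did not overlap for 18 members (51.4%, against 39.9% of all genes, both directions together). *Ptch1*-ablated samples were below control for 12 and above for 6. The median log2 fold change was -0.08 over the members tested and -0.01 over all genes. Of the members, 24 lay below 0 and 11 above, and of the 12999 genes tested 6299 lay above 0. With 3 samples in each group an exact permutation test of a single gene cannot give a p below 0.10, so all p values here come from the fit across genes. The study calls its replicates biological, and the p values set each difference against the spread between samples, which the fit moderates across genes.

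All 5 calls rest on few samples. Leaving out control replicate 1, 2 or 3 left 0 of the 5, with the direction of each kept, and reduced the calls over all genes from 1822 to 690, 93 and 734. Without *Ptch1*-ablated replicate 1, *Fzd3*, *Wnt9a* and *Fzd4* passed, with 1170 calls over all genes. Without replicate 2 the call of *Fzd3* was lost and *Wnt7b* passed (adjusted p = 0.0458) beside the other 4, with 1045 calls. Without replicate 3 only *Wnt9a* passed, with 1325 calls. Each such fit has 1 sample fewer from which to estimate the spread.

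**Figure D2:**
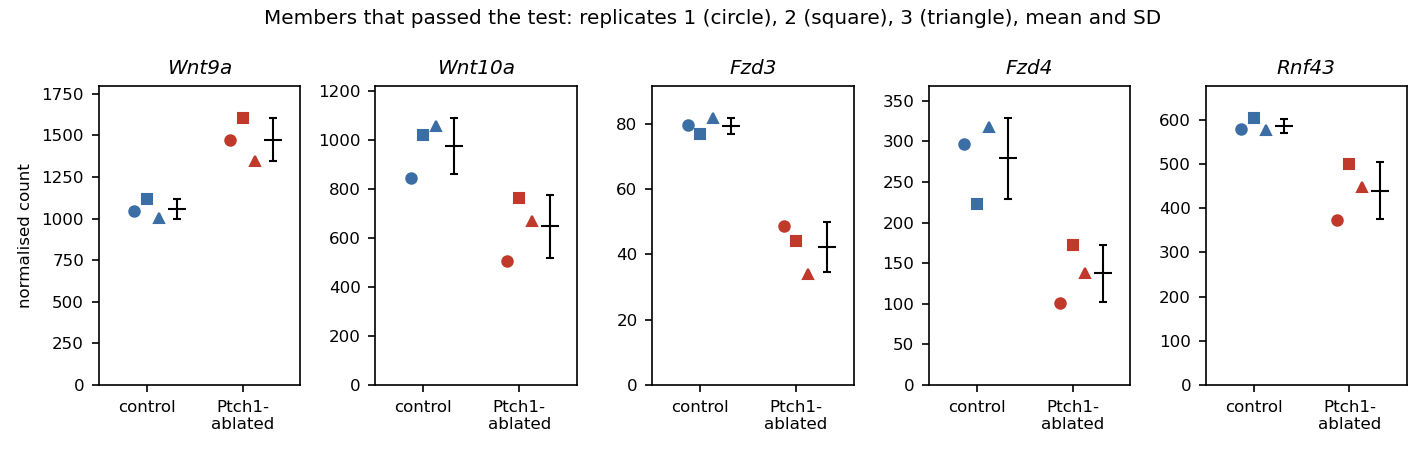
Normalised counts of *Wnt9a*, *Wnt10a*, *Fzd3*, *Fzd4* and *Rnf43* in control (blue) and *Ptch1*-ablated (red) samples, with each replicate as a symbol and the mean with SD (n = 3) as a bar; every vertical axis starts at 0. The groups do not overlap in any panel, and *Ptch1*-ablated replicate 1 is lowest for *Wnt10a*, *Fzd4* and *Rnf43*.

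Among the ligands, *Wnt9a*, known for its part in skeletal and joint development, was the member that rose. It had normalised counts of 1045, 1120 and 1004 in control replicates 1, 2 and 3 and 1471, 1604 and 1347 in *Ptch1*-ablated replicates 1, 2 and 3. Every *Ptch1*-ablated sample lay above every control sample. The means were 1056 ± 58.9 and 1474 ± 129 (SD, n = 3), 1.40-fold higher after *Ptch1* ablation (log2 fold change 0.48, SE 0.0847, adjusted p = 0.0170). *Wnt9a* passed with each *Ptch1*-ablated sample left out (adjusted p of 0.0226 to 0.0425). It did not pass without control replicate 1 (0.0543), 2 (0.0676) or 3 (0.0537). As a share of the summed TPM of the 16 ligands listed, it made up 6.83% to 7.49% in control and 10.4% to 11.9% in *Ptch1*-ablated samples.

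*Wnt10a*, a ligand known for its part in skin, hair and tooth development, moved the other way. Its normalised counts were 844, 1022 and 1058 in control replicates 1, 2 and 3 and 508, 764 and 669 in *Ptch1*-ablated replicates 1, 2 and 3. The groups did not overlap, and *Ptch1*-ablated replicate 1 was the lowest sample. The means of 974 ± 115 and 647 ± 129 (SD, n = 3) gave a log2 fold change of -0.59 (SE 0.157, adjusted p = 0.0471). Among the fits that left out 1 sample, only that without *Ptch1*-ablated replicate 2 kept the call (adjusted p = 0.0430). Without *Ptch1*-ablated replicate 1 the log2 fold change was -0.44 (adjusted p = 0.0618) and without replicate 3 the adjusted p was 0.0843. Without control replicates 1, 2 and 3 it was 0.0649, 0.152 and 0.118. The 3 limma fits on TPM also lost the call (0.0616, 0.0624 and 0.103). The share of *Wnt10a* in the summed ligand TPM was 10.3% to 12.3% in control and 7.002% to 8.94% in *Ptch1*-ablated samples.

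The most abundant ligands did not pass. *Wnt4* made up 37.3% to 44.1% of the summed ligand TPM in a sample. It had 5994, 6662 and 6561 normalised counts in control replicates 1, 2 and 3 and 6307, 6578 and 6186 in *Ptch1*-ablated replicates 1, 2 and 3. The groups overlapped, and the log2 fold change of -0.01 (SE 0.0684, adjusted p = 0.929) had a 95% interval, not adjusted for the number of genes, of 0.889 to 1.11 as a fold change. *Wnt7b*, an epithelial ligand, was second in level, at 150 ± 8.56 TPM in control and 116 ± 20.9 TPM in *Ptch1*-ablated samples (SD, n = 3). Its normalised counts were 4741, 4954 and 4384 in control replicates 1, 2 and 3 and 3152, 4337 and 3674 in *Ptch1*-ablated replicates 1, 2 and 3. Every *Ptch1*-ablated sample was below every control sample, by a narrow margin for replicate 2, and the difference did not pass (log2 fold change -0.33, SE 0.117, adjusted p = 0.0930). *Wnt7b* passed with DESeq2 (adjusted p = 0.0452) and without *Ptch1*-ablated replicate 2 (0.0458), 2 of 16 alternatives. *Wnt4* and *Wnt7b* together held 69.0% of the summed ligand TPM. That sum was 437, 506 and 488 TPM in control replicates 1, 2 and 3 and 373, 461 and 429 TPM in *Ptch1*-ablated replicates 1, 2 and 3, with overlapping groups.

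The other ligands tested were lower in level. *Wnt3a*, a ligand of the β-catenin route, followed in level (log2 fold change -0.21, adjusted p = 0.250). *Wnt11* (0.27, adjusted p = 0.469), *Wnt5a* (-0.04, adjusted p = 0.905) and *Wnt5b* (-0.29, adjusted p = 0.557), known as ligands of β-catenin-independent signaling, did not pass. *Wnt2* (-0.40, adjusted p = 0.110), *Wnt6* (-0.62, adjusted p = 0.170) and *Wnt2b* (-0.08, adjusted p = 0.896) did not pass either, though *Wnt6* passed with the replicate number as a block (0.0344). *Wnt6* and *Wnt10a* are neighbours on chromosome 1 and both lay below 0, whereas *Wnt3a* and *Wnt9a*, neighbours on chromosome 11, lay on opposite sides of 0. *Wnt9b* and *Wnt3* are likewise neighbours on chromosome 11, and neither was tested.

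Of the 9 Frizzled receptors in the table, each of which was tested, 2 fell, against 6.41% of all genes, and 0 rose, against 7.61%. For 6 of them the groups did not overlap (39.9% of all genes), and with 9 genes these counts are a description only. *Fzd4*, a receptor for Wnt ligands and for norrin, had 297, 223 and 317 normalised counts in control replicates 1, 2 and 3 and 101, 172 and 138 in *Ptch1*-ablated replicates 1, 2 and 3. All *Ptch1*-ablated samples lay below all control samples. The means were 279 ± 49.6 and 137 ± 35.6 (SD, n = 3), 2.03-fold lower after *Ptch1* ablation (log2 fold change -1.02, SE 0.214, adjusted p = 0.0256). The call was kept without *Ptch1*-ablated replicate 1 (adjusted p = 0.0365) or 2 (0.0301) and lost without replicate 3 (0.0552). It was also lost without control replicate 1 (0.0736), 2 (0.0673) or 3 (0.0698), and with limma on TPM with no filter (0.0640). Without *Ptch1*-ablated replicate 1 the log2 fold change was -0.84, under a fold change of 2.

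*Fzd3*, a receptor known for planar polarity and axon guidance, was the lowest Frizzled in level. Its TPM was 0.66 ± 0.035 in control and 0.34 ± 0.053 in *Ptch1*-ablated samples (SD, n = 3). Normalised counts were 79.5, 76.7 and 81.5 in control replicates 1, 2 and 3 and 48.6, 44.1 and 33.8 in *Ptch1*-ablated replicates 1, 2 and 3. The groups were well apart, and the control samples lay close together. The log2 fold change was -0.91 (SE 0.197, adjusted p = 0.0278). Leaving out *Ptch1*-ablated replicate 1 kept the call (adjusted p = 0.0350), and it was lost without replicate 2 (0.0620) or 3 (0.0577). It was lost without control replicate 1 (0.0745), 2 (0.102) or 3 (0.0722).

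*Fzd6*, a Frizzled known for planar polarity and hair patterning, held 57.8% of the summed Frizzled TPM. It had 3529, 3460 and 3831 normalised counts in control replicates 1, 2 and 3 and 3720, 3235 and 2869 in *Ptch1*-ablated replicates 1, 2 and 3. The groups overlapped, with a log2 fold change of -0.14 (SE 0.101, adjusted p = 0.372). *Fzd5*, second in level, had 1133, 1011 and 1136 normalised counts in control replicates 1, 2 and 3 and 1192, 1253 and 1281 in *Ptch1*-ablated replicates 1, 2 and 3. Its *Ptch1*-ablated samples were all above control, and the difference did not pass (0.18, SE 0.0735, adjusted p = 0.127). *Fzd10* (-0.38, adjusted p = 0.0508) and *Fzd8* (-0.39, adjusted p = 0.0833) lay just outside the threshold and below 0, and *Fzd10* passed with upper-quartile factors (0.0484). The log2 fold changes of *Fzd1* (0.37, adjusted p = 0.143), *Fzd7* (-0.08, adjusted p = 0.473) and *Fzd2* (-0.07, adjusted p = 0.784) did not pass. Reads can be shared between Frizzled genes of like sequence, and the expected counts of *Fzd1*, *Fzd2*, *Fzd3*, *Fzd4*, *Fzd6* and *Fzd7* were not all whole, which marks reads that the estimate divided.

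**Figure D3:**
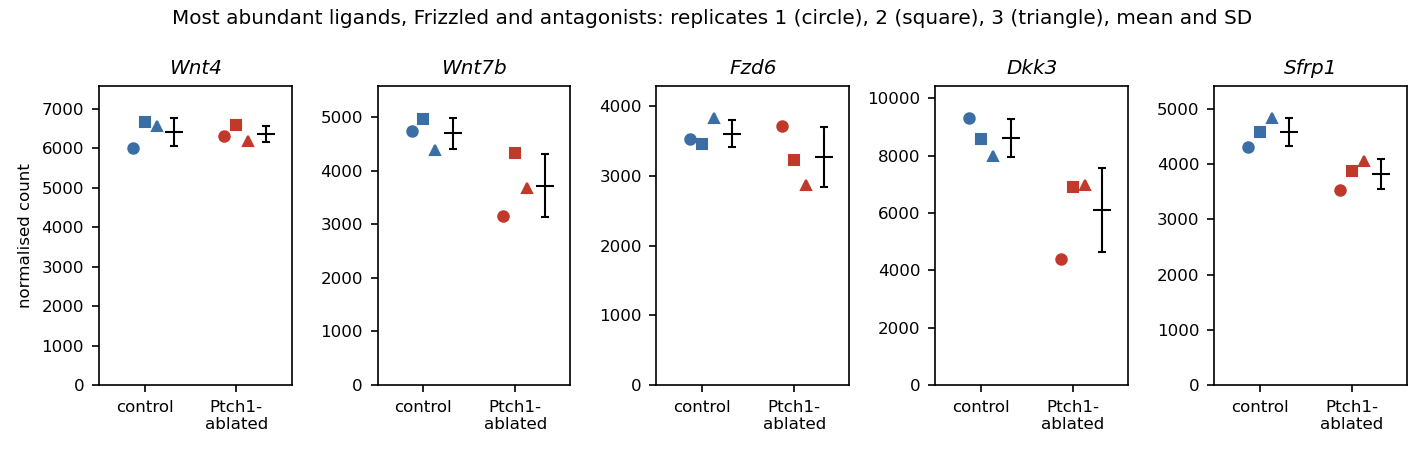
Normalised counts of the most abundant ligands (*Wnt4*, *Wnt7b*), Frizzled (*Fzd6*) and genes listed as antagonists (*Dkk3*, *Sfrp1*) in control (blue) and *Ptch1*-ablated (red) samples. Each replicate is a symbol and the mean with SD (n = 3) is a bar, and every vertical axis starts at 0. Groups overlap for *Wnt4* and *Fzd6*, and none of these 5 members passed the test.

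Differences were small among the co-receptors and alternative receptors, where 0 of 3 tested passed and log2 fold changes lay between -0.13 and 0.08. *Ryk*, an alternative Wnt receptor, had 1818, 1675 and 1682 normalised counts in control replicates 1, 2 and 3 and 1695, 1526 and 1515 in *Ptch1*-ablated replicates 1, 2 and 3. The groups overlapped (log2 fold change -0.13, SE 0.0719, adjusted p = 0.253). *Lrp5*, a co-receptor for Frizzled, had 1642, 1801 and 1698 normalised counts in control replicates 1, 2 and 3 and 1753, 1881 and 1805 in *Ptch1*-ablated replicates 1, 2 and 3. The groups overlapped here too (0.08, SE 0.0642, adjusted p = 0.411). *Lrp6*, the other co-receptor, had a log2 fold change of 0.01 with a 95% interval of -0.13 to 0.14 (adjusted p = 0.95), and its sign changed under 7 of 16 alternatives.

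Of the genes that set the amount of Frizzled at the membrane, *Rnf43* fell. This ligase marks Frizzled for removal, and it is itself known as a target of β-catenin signaling. It had 578, 604 and 576 normalised counts in control replicates 1, 2 and 3 and 372, 499 and 448 in *Ptch1*-ablated replicates 1, 2 and 3. The groups did not overlap, and *Ptch1*-ablated replicate 1 was lowest. The means of 586 ± 15.5 and 440 ± 63.7 (SD, n = 3) gave a log2 fold change of -0.41 (SE 0.111, adjusted p = 0.0485). Among the fits without 1 sample, the call was kept only without *Ptch1*-ablated replicate 2 (adjusted p = 0.0421). It was lost without *Ptch1*-ablated replicate 1 (0.0695) or 3 (0.0886) and without control replicate 1 (0.106), 2 (0.159) or 3 (0.101). With all samples kept, it was lost with RLE size factors (0.0508), with no filter on low counts (0.0556) and in the 3 limma fits on TPM (0.0635, 0.0642 and 0.106), so it passed under 6 of 16 alternatives. Its paralogue *Znrf3* lay above 0 and did not pass (0.22, SE 0.0766, adjusted p = 0.0934). *Lgr4*, the R-spondin receptor with the highest level, had 1379, 1457 and 1539 normalised counts in control replicates 1, 2 and 3 and 1158, 1222 and 1373 in *Ptch1*-ablated replicates 1, 2 and 3. Its groups were just apart and the difference did not pass (-0.22, SE 0.0839, adjusted p = 0.112).

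Among the genes listed as secreted antagonists, *Dkk3*, a divergent Dickkopf gene, and *Sfrp1*, which binds Wnt ligands, together held 99.9% of the summed TPM. *Dkk3* alone held 69.6%, and whether it acts as a Wnt antagonist here was not measured. *Dkk3* had 9311, 8591 and 7988 normalised counts in control replicates 1, 2 and 3 and 4398, 6917 and 6974 in *Ptch1*-ablated replicates 1, 2 and 3. All *Ptch1*-ablated samples were below control, replicate 1 by far the most. The difference did not pass (log2 fold change -0.50, SE 0.172, adjusted p = 0.0889), and without *Ptch1*-ablated replicate 1 the log2 fold change was -0.31 (adjusted p = 0.0568). It passed with DESeq2 (adjusted p = 0.0190). *Sfrp1* had 4321, 4591 and 4834 normalised counts in control replicates 1, 2 and 3 and 3535, 3878 and 4059 in *Ptch1*-ablated replicates 1, 2 and 3. Its groups did not overlap either, and it lay just outside the threshold (-0.26, SE 0.0769, adjusted p = 0.0606). *Sfrp1* passed with DESeq2 (adjusted p = 0.0261) and with the replicate number as a block (0.0346). The summed level of the listed genes was 390 ± 4.0 TPM in control and 283 ± 63.2 TPM in *Ptch1*-ablated samples (SD, n = 3), a description with no test. That sum was mostly *Dkk3* and does not measure Wnt inhibition.

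The genes of ligand secretion did not pass. *Wls* had 2614, 2598 and 2855 normalised counts in control replicates 1, 2 and 3 and 2797, 2479 and 2492 in *Ptch1*-ablated replicates 1, 2 and 3. The groups overlapped (log2 fold change -0.05, SE 0.0744, adjusted p = 0.647). *Porcn* had 707, 707 and 603 normalised counts in control replicates 1, 2 and 3 and 821, 817 and 814 in *Ptch1*-ablated replicates 1, 2 and 3. Its *Ptch1*-ablated samples lay close together and above control, just outside the threshold (0.28, SE 0.0834, adjusted p = 0.0611), and it passed with DESeq2 (0.0477).

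*Ctnnb1*, whose protein also holds cells together at adherens junctions, was the member with the highest transcript level. It had 11589, 11327 and 11951 normalised counts in control replicates 1, 2 and 3 and 13082, 12230 and 12374 in *Ptch1*-ablated replicates 1, 2 and 3. The groups were apart by a small margin and the difference did not pass (log2 fold change 0.11, SE 0.0649, adjusted p = 0.265). *Tcf7l1*, which encodes a TCF factor known mostly as a repressor, was the most abundant TCF gene. It had 1268, 1324 and 1244 normalised counts in control replicates 1, 2 and 3 and 1165, 1324 and 1328 in *Ptch1*-ablated replicates 1, 2 and 3. The groups overlapped, with a log2 fold change of -0.01 and a 95% interval of -0.18 to 0.17 (adjusted p = 0.958). *Tcf7l2* did not pass either (-0.09, adjusted p = 0.528). *Tcf7*, at 0.847 ± 0.065 TPM in control and 1.70 ± 0.149 TPM in *Ptch1*-ablated samples (SD, n = 3), lay just outside the threshold (log2 fold change on counts 0.69, SE 0.190, adjusted p = 0.0512) and passed under 4 of 16 alternatives. *Axin2*, a feedback inhibitor widely used as a readout of β-catenin signaling, was at 1.31 ± 0.223 TPM in control and 1.85 ± 0.745 TPM in *Ptch1*-ablated samples (SD, n = 3). Its groups overlapped and it did not pass (0.49, SE 0.284, adjusted p = 0.266).

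**Figure D4:**
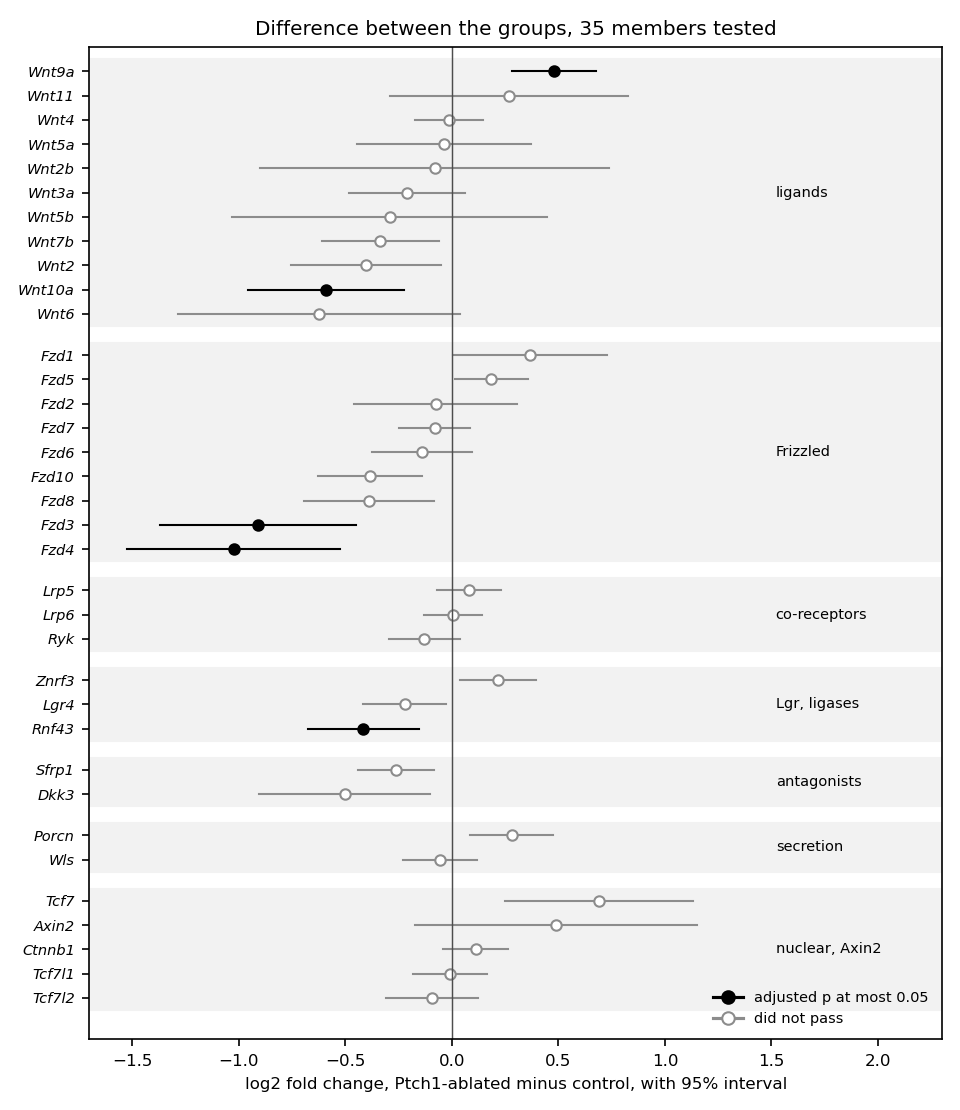
Log2 fold change (*Ptch1*-ablated minus control) of the 35 members tested, by role, with lines for the 95% interval of each, not adjusted for the number of genes; filled points passed at an adjusted p of at most 0.05. *Wnt9a* is the filled point above 0, and *Wnt10a*, *Rnf43*, *Fzd3* and *Fzd4* are those below 0.

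Beyond the members, 88 further pathway genes were listed by role in 4 lists, and 65 were tested. Of these, 5 rose (7.61% of all genes tested did) and 4 fell (6.41%), and their median log2 fold change was 0.01. In the intracellular list, 3 of 30 tested rose and 1 fell. *Axin1* (log2 fold change 0.23, adjusted p = 0.0446), *Gsk3b* (0.26, adjusted p = 0.0331) and *Fbxw11* (0.28, adjusted p = 0.0304), which take part in the phosphorylation and ubiquitination of β-catenin, were the genes that rose. *Dact2*, which encodes a partner of Dishevelled, fell (-0.88, adjusted p = 0.0179). Of 10 further extracellular and membrane genes tested, *Gpc3*, a glypican that can bind Wnt and Hedgehog ligands, fell.

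*Gpc3* had 727, 1115 and 1042 normalised counts in control replicates 1, 2 and 3 and 326, 405 and 302 in *Ptch1*-ablated replicates 1, 2 and 3. Every *Ptch1*-ablated sample lay well below every control sample (log2 fold change -1.48, SE 0.181, adjusted p = 0.00773), and it passed in 6 of 6 fits without 1 sample. Of 13 planar polarity genes tested, *Ptk7*, which encodes a co-receptor of that route, rose (0.43, adjusted p = 0.0135). Of 12 genes known as β-catenin targets in other tissues, 1 rose and 2 fell. *Myc* rose (0.91, adjusted p = 0.0153), and *Ccnd1* (-0.56, adjusted p = 0.0267) and *Ascl2* (-0.75, adjusted p = 0.0306) fell, so that the genes that passed lay on both sides of 0.

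Except for *Gpc3*, each of these 9 calls was lost without at least 1 sample. Without control replicate 2, the adjusted p was 0.0692 for *Ptk7* and 0.0803 for *Myc*, which passed in the other 5 fits. *Dact2* was lost without control replicate 1 (0.0543) or 2 (0.0810). *Ccnd1* was lost without control replicate 1 (0.0797) or 2 (0.105) and without *Ptch1*-ablated replicate 3 (0.0586). *Gsk3b* passed only without *Ptch1*-ablated replicate 3 (0.0496), *Fbxw11* only without replicate 2 (0.0459) and *Ascl2* only without replicate 1 (0.0452). *Axin1* passed in 0 of the 6 (0.0656 to 0.139). With all samples kept, its call was also lost with upper-quartile factors (0.0518), no filter (0.0709), a replicate block (0.0625) and limma on TPM (0.0990 to 0.105). The limma fits on TPM also lost *Gsk3b* (0.0786 to 0.0870) and *Fbxw11* (0.0842 to 0.0976), and that with no filter lost *Ccnd1* (0.0534) and *Dact2* (0.0546).

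**Figure D5:**
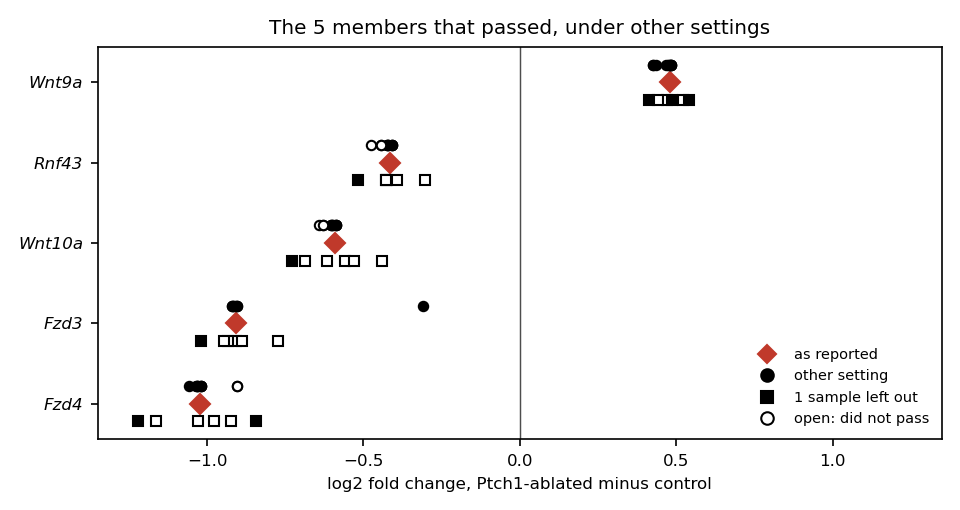
Log2 fold change (*Ptch1*-ablated minus control) of the 5 members that passed, as reported (diamonds), under other settings (circles, upper row) and with 1 sample left out (squares, lower row); open symbols did not pass. No symbol crosses 0, and the circle for *Fzd3* nearest to 0, at -0.31, is from log2(TPM + 1), where the pseudocount is larger than the level of the gene.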

How the data were processed

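Per the submitters' processing notes, Bowtie2 2.2.5, RSEM 1.2.12 and genome build mm9 were used. The authors deposited RSEM's expected counts per gene, not scaled for depth, beside TPM and FPKM values, which RSEM scales for length and depth. FPKM values and the authors' averages were not used. Of the expected counts above 0, 39.4% were not whole, and all were rounded before testing. The number of other sample columns left unused was 0. The labels name an age of 10 weeks and an Illumina TruSeq kit. The study gives an age of 2 months for tamoxifen induction, and its methods describe rRNA depletion and sequencing of DNA nanoballs.

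Genes passing filterByExpr (12999) were tested with edgeR 4.0.16 in R 4.3.3 (quasi-likelihood test, TMM factors 0.960 to 1.03) with Benjamini-Hochberg adjustment over all of them. The study's thresholds, an adjusted p no higher than 0.05 together with a minimum fold change of 2, were used beside the first alone. Normalised counts are counts over the TMM-scaled library size, times the mean scaled size. Levels are compared between genes only in TPM.

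The members, role lists and markers were chosen with earlier results of these data known. Values in every sample are given for members that passed and for the 2 with the highest mean TPM in each role; *Gpc3* was given so after its values were seen. Other pathway lists name at most 5 genes per direction, by adjusted p. The alternatives were DESeq2 1.42.0, limma-voom (limma 3.58.1), other size factors and filters, limma on log2 TPM, a replicate block and each sample left out. The procedure was also run on simulated data, with changes larger than those of the members that passed and the same spread in both groups. That run does not show how well changes of the members' size are found.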

Additional observations from a re-analysis of the deposited data

How the results depend on the processing

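The 5 members that passed became 9 with DESeq2, where calls over all 12999 genes rose from 1822 to 2520, and 1 with a fold change of at least 2. They became 3 and 2 with limma on log2 of TPM plus 1 or 0.1 where mean TPM reached 1 (1465 and 1422 calls over 11976 genes), and 3 on TPM plus 1 with no filter. Calls over all genes numbered 798 in that last fit and 420 with a fold change of at least 2. Leaving out 1 sample gave 0 to 5 members and 93 to 1325 genes. Same-numbered samples did not deviate together (correlations of 0.105, -0.0137 and 0.0189), and a replicate block gave 7 members and 1892 genes. The members' median log2 fold change stayed between -0.13 and -0.07, each value less than 0.0592, its SD between samples, from the reported one.

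Of 700 recomputed values for the 35 members tested and 9 pathway genes, 594 kept their direction and side of the threshold, 73 no longer passed, 12 newly passed and 21 changed sign. Those 21 belonged to 7 members, none of which passed, and the cause was not tested. Leaving out 1 sample gave -0.058 to 0.016 for *Wnt4*, -0.25 to 0.11 for *Wnt5a*, -0.48 to 0.047 for *Wnt5b* and -0.47 to 0.093 for *Wnt2b*. It gave -0.28 to 0.028 for *Fzd2*, -0.039 to 0.055 for *Tcf7l1* and -0.011 to 0.026 for *Lrp6*. *Lrp6* also turned to -0.0048 with upper-quartile factors, -2.3e-05 with no filter, -0.031 with TPM plus 1 with or without the filter and -0.033 with TPM plus 0.1. The 16 members not tested in the main fit had at most 15 counts in any sample. With no filter beyond 1 count all 51 members were tested, and only *Wnt10a*, *Fzd3*, *Wnt9a* and *Fzd4* passed. That fit gave 1591 calls over 17743 genes. At such low counts a difference between the groups can go undetected.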
